A study of Rattus norvegicus with 24 samples.

Results

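Gene expression was measured in the blood of rats injected with lipopolysaccharide (LPS) and fed G1, the oat beta-glucan of high molecular weight. The members were taken from the sample titles: 4 arrays of LPS-injected rats on the G1 diet (LPS-G1) and 4 arrays of LPS-injected rats on the control diet (LPS-G0), 8 of the 24 arrays of the series. All rats were male Sprague-Dawley animals, 8 weeks old at the start by the study's methods, and both groups received repeated injections of 10 mg/kg LPS into the tail vein at the start of an experiment with 6 weeks of the diets. The rats of the groups without LPS received saline. The comparison asks what the G1 diet does to blood gene expression in rats given LPS. Each array carried RNA of whole blood beside a common pooled reference of rat RNA, made from all rats by the labels and from rats of each group that were not hybridised singly by the methods, and every value below is a log2 ratio of rat RNA over that reference. A difference of 1 on this scale is a 2-fold difference. LPS served in the study to induce enteritis, so blood stands at a distance from the organ it was given to inflame.

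Beta-glucans are glucose polymers of cereal and fungal cell walls. Fungal beta-glucan is recognised on myeloid cells by dectin-1 (Clec7a) and complement receptor 3, which signal through Syk and Card9, while cereal beta-glucan also acts in the gut as soluble fibre and as a substrate for bacteria. LPS, from the outer membrane of Gram-negative bacteria, is sensed by Cd14, Ly96 and Tlr4 and drives NF-kB and interferon-regulated genes. RNA of whole blood comes mainly from reticulocytes, neutrophils, lymphocytes, monocytes and platelets. Olfactory and vomeronasal receptors are a very large family of chemosensory receptors that is read mainly in the nose, and single members have been described in other tissues. In bulk blood, fewer cells of a type and less RNA per cell cannot be told apart.

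Several facts about the arrays stand before the results. LPS-G0 replicates 3 and 4 are titled as LPS-injected, while their own inflammation label reads control, so the counts and the leading lists are also given without them. By the labels Cy3 marked the RNA of each rat, and by the study's methods Cy5 did. Over 7074 probes the spread within the groups had a median SD of 0.289 in Cy3 and 0.186 in Cy5, and Cy3 had the larger SD for 84.2% of them. The common reference should vary least, so the direction follows the labels, which is opposite to the dyes in the methods. The study itself reports Ube2c, Dmtn and Serp2 as lower and Cd40 as higher in LPS-G1 than in LPS-G0, the direction found here. Those reports come from arrays of the same series. At 2-fold the study counts nearly as many genes down as up in this comparison, unlike the counts below. The correlation between any 2 of the 8 arrays over all probes lay between 0.03 and 0.36. The arrays sat on 3 slides, each with arrays of both groups but not in equal number. Slide 1 held LPS-G0 replicates 1 and 2 with LPS-G1 replicate 1. Slide 2 held LPS-G0 replicate 3 with LPS-G1 replicates 2 and 3, and slide 3 held replicate 4 of both groups. Between 10533 and 13573 probes an array were well above background in Cy3. Erythroid transcripts, led by Hbb-b1 and Hba-a1, were measured on all 8 arrays, as were markers of neutrophils, monocytes, B cells and T cells.

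The array probes themselves are part of the finding, because the decreases were unevenly spread over their base content. A few are therefore shown first, as the opening 30 bases of each 60-base probe with every cytosine in capitals, with positions in the rat build rn4 as the array files give them. Hdac7 and Ehd1 stand for the cytosine-rich probes that fell, and Dnaaf10 and Pias3 for the cytosine-poor probes that rose. The olfactory receptor Or10ag59b fell with 8 cytosines in the whole probe.
Car1, chr2:88210305-88210364, 21 cytosines in the whole probe: ttCtgagCaaCCaCCgtCCaCCCCagCCCt
Hdac7, chr7:136510672-136510731, 21 cytosines in the whole probe: gtgCtCCtCtaCggCaCaaaCCCaCtCagC
Ehd1, chr1:209075967-209076026, 21 cytosines in the whole probe: ttatCaaggtCaagCtagagggCCatgagC
Or10ag59b, chr3:71097817-71097876, 8 cytosines in the whole probe: taCagCttCagaaaCaaggatgtgattggt
Igll1, chr11:86161946-86162005, 11 cytosines in the whole probe: CaggtCaCtCatgaaggaaaCaCtgtggag
Dnaaf10, chr14:98132406-98132465, 6 cytosines in the whole probe: CttggCtgtCtCttgaCtgtggtaagtgat
Pias3, chr2:191507111-191507170, 5 cytosines in the whole probe: aataaaggttgtgaatgttCtgtgagCgtC

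The difference between LPS-G1 and LPS-G0 was made of many small decreases. Of 10164 probes well above background on all arrays of either group, 862 (8.48%) were lower in LPS-G1 and 57 (0.561%) were higher at a limma Benjamini-Hochberg adjusted p under 0.05. A change of at least 2-fold was reached by 83 (0.817%) of the lower and 19 (0.187%) of the higher probes. The lower probes had a median log2 fold change of -0.72, a 1.65-fold decrease, with an interquartile range of -0.84 to -0.61, and 90.4% of them changed by less than 2-fold. All LPS-G1 arrays lay below all LPS-G0 arrays for 805 of the 862, while 2243 (22.1%) of all probes tested had groups apart in either direction. The 862 were chosen on these arrays, so these values describe them. Their median ratio was 0.48, 0.38, 0.27 and 0.51 on the LPS-G0 arrays and -0.02, -0.40, -0.28 and -0.47 on the LPS-G1 arrays. The LPS-G1 array closest to LPS-G0 was replicate 1, and the groups did not overlap. Over all 10164 probes the median difference was 0.06.

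These calls depended on which arrays were in the fit. With both conflicting arrays left out, 0 probes were called by limma, with 1553 lower and 391 higher at an unadjusted p under 0.05 and a smallest adjusted p of 0.126. The count of lower probes also fell to 0 when replicate 1 of LPS-G0 or replicate 4 of either group was left out. It fell to 10 without LPS-G0 replicate 2, and to 2 without LPS-G1 replicate 2 or replicate 3. Without LPS-G0 replicate 3 the count was 873, and without LPS-G1 replicate 1 it was 1170. It was 344 with the slide as a block, and within slides 1, 2 and 3 the median change of the 862 probes, chosen on the same arrays, was -0.44, -0.62 and -0.98. The values of single arrays are therefore given beside the calls below.

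Counted over genes, with the brightest tested probe for each, 826 of 9229 (8.95%) fell and 51 (0.553%) rose. All LPS-G1 arrays lay below all LPS-G0 arrays for 1417 genes (15.4%). Function and marker lists, 58 in all, covered 2069 of the tested genes, and 142 (6.86%) of those fell. The other 684 genes that fell were on no list, and 213 of the 826 had no gene symbol (25.8%, beside 27.5% of the genes tested). The share that fell was above that of all genes in 10 lists, and 19 lists had no gene that fell.

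**Figure D1:**
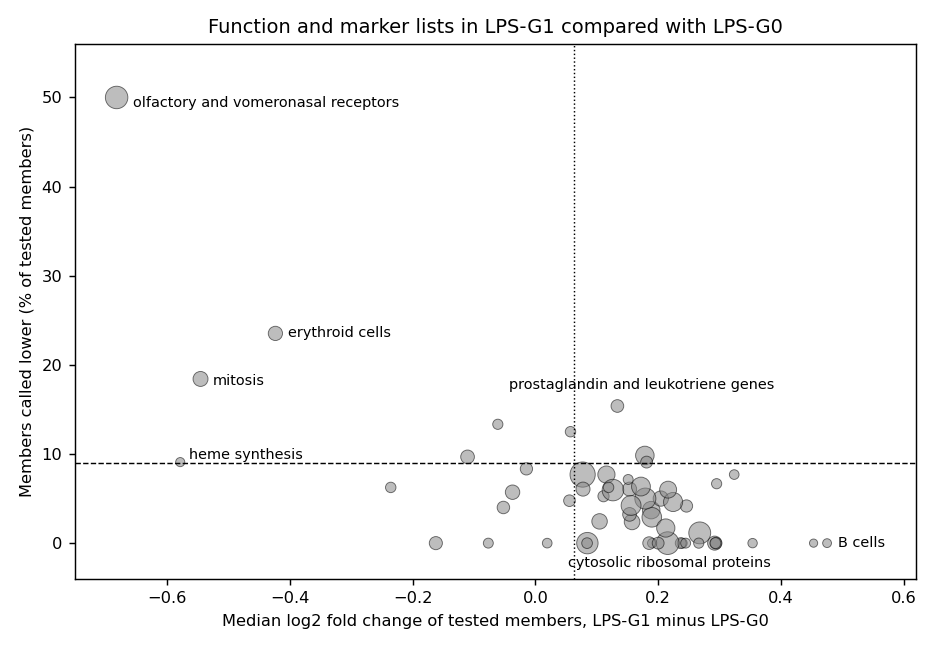
Each circle is 1 of 58 function or marker lists, with the median log2 fold change of its tested members on the horizontal axis, the percent of members that fell on the vertical axis and its area set by the number of tested members. The dashed and dotted lines mark all genes tested (8.95% and 0.06), and olfactory and vomeronasal receptors stand apart at 46 of 92 members and -0.68.

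Olfactory and vomeronasal receptors made up the largest group of decreases on any list. Of 1339 such genes on the array, 92 were well above background in at least 1 group and tested. Of those, 46 fell, against 8.95% of all genes. On all 8 arrays 72 were well above background, and 40 of these fell (median -0.65), beside 752 of 8103 genes overall. The others entered the test through 1 group, most of them through LPS-G0, where they were higher. The olfactory probes were dim, with a median log2 Cy3 of 7.62, beside 8.66 for other probes. None rose. The median log2 fold change of the 92 was -0.68, beside 0.06 over all genes tested, and 96.7% had a negative difference. The groups did not overlap for 55 of them (59.8%, beside 15.4% of all genes). The median ratio of the 92 genes was 0.44, 0.38, 0.23 and 0.44 on the LPS-G0 arrays and 0.00, -0.38, -0.27 and -0.48 on the LPS-G1 arrays. Every LPS-G0 array was above 0 and no LPS-G1 array was. At an unadjusted p under 0.05, 76 of the 92 were lower and 0 higher. The medians within slides 1, 2 and 3 were -0.41, -0.58 and -0.98, and without the arrays of conflicting labels the median was -0.72 with 0 genes called by limma.

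The changes of the 46 receptors that fell ran from -1.57 to -0.47. Or52p1, an odorant receptor listed as Olr157 in the files, had ratios of 0.77, 0.19, 0.26 and 0.81 in LPS-G0 and -0.26, -1.94, -1.22 and -0.82 in LPS-G1. No array of one group reached into the other, and the log2 fold change was -1.57 ± 0.33 (SE, n = 4 a group, limma adjusted p = 0.0281). Its probe cleared background on 2 of 4 LPS-G1 arrays. Or10ag59b, another odorant receptor, gave 0.35, 0.33, 0.27 and 0.46 in LPS-G0 and -0.32, -0.75, -0.58 and -0.93 in LPS-G1. This probe was above background on all 8 arrays, and the difference was -0.997 ± 0.22 (SE, n = 4 a group, limma adjusted p = 0.0281). Vom1r38, a vomeronasal receptor, changed by -0.98 and Or13a26c by -1.30. Or10g9b, above background on all 8 arrays, changed by -0.77. The receptors that fell lay on many chromosomes, with 13 of 22 tested on chromosome 3, 11 of 29 on chromosome 1, 7 of 12 on chromosome 10 and 5 of 7 on chromosome 8. Members of this family resemble each other in sequence, and whether a probe also bound RNA of a relative was not tested.

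The group medians of the same 92 genes in the other arms were -0.11 in saline-injected rats on the control diet (C-G0), 0.37 in LPS-G0, -0.54 in saline-injected rats on G1 (C-G1) and -0.27 in LPS-G1. In LPS-injected rats on low-molecular-weight beta-glucan (LPS-G2) the median was -0.01. Among these medians that of LPS-G0 was the highest and that of C-G1 the lowest. The 92 genes passed a filter on the LPS-G0 or LPS-G1 arrays, some only through LPS-G0. The place of LPS-G0 is therefore partly set by that choice. With no filter, 1339 genes had a median difference of -0.054 between LPS-G1 and LPS-G0.

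Genes of mitosis were another group with lower values. Of 38 tested, 7 fell (18.4%, against 8.95% of all genes) and none rose, with a median log2 fold change of -0.55 and 89.5% of differences negative. The list medians were 0.36, 0.27, 0.27 and 0.26 on the LPS-G0 arrays and -0.09, -0.31, -0.10 and -0.11 on the LPS-G1 arrays. Of the 38, 25 were well above background on all 8 arrays, and 4 of these fell, beside 752 of 8103 genes overall. The others entered the test through 1 group, Kif18b, Tpx2 and Cenpq through LPS-G0, where they were higher. With the slide as a block 2 of 38 fell (5.26%, beside 3.60% of all genes). LPS-G1 replicate 2 was the lowest array, and without it the list median was -0.41. Without the arrays of conflicting labels the median was -0.54 with 0 genes called by limma. Ube2c, the E2 enzyme that hands ubiquitin to targets of the anaphase-promoting complex, gave 1.12, -0.02, 1.11 and 1.21 in LPS-G0 and -0.78, -2.25, -1.62 and -1.92 in LPS-G1. LPS-G0 replicate 2 stood below the other 3 of its group, yet above every LPS-G1 array. The difference was -2.50 ± 0.45 (SE, n = 4 a group, limma adjusted p = 0.0281), and -2.19 with an adjusted p of 0.126 without the arrays of conflicting labels. Ube2c was also low in LPS-G2, with a group mean of -0.97, and the direct difference between LPS-G1 and LPS-G2 was -0.67 (limma adjusted p = 0.702).

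Tpx2, which activates Aurora A on the spindle, gave 1.09, 0.92, 0.38 and 0.46 in LPS-G0 and 0.14, -3.10, -0.42 and -0.49 in LPS-G1. LPS-G1 replicate 2 lay far below the rest, and the log2 fold change of -1.68 became -0.97 without it. Kif18b, a kinesin that shortens microtubules, changed by -1.82, and its LPS-G1 replicate 2 was again the lowest array at -3.55. Without it Kif18b differed by -1.08. Cdca3, a trigger of mitotic entry, changed by -1.37. The centromere protein Cenpt changed by -0.87 and Dlgap5, a spindle protein, by -0.78. Cenpq, another centromere protein, did not clear background on any LPS-G1 array and was at least 1.66-fold lower there by its Cy3 signal. Outside the list, the spindle motor Kifc1 changed by -1.65 and the mitotic spindle protein Ckap2l by -1.57, and neither had overlapping groups. Of 22 tested genes of DNA replication, 2 fell (9.09%, beside 8.95% of all genes), and the list median was 0.18. These were Tyms (thymidylate synthase, -1.35) and Tk1 (thymidine kinase, -0.95).

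Genes of erythroid cells fell in 8 of 34 cases (23.5%, against 8.95% of all genes) with a list median of -0.42, and none rose. The list medians were 0.28, 0.30, 0.21 and 0.22 on the LPS-G0 arrays and -0.12, -0.42, -0.18 and -0.04 on the LPS-G1 arrays. Without LPS-G1 replicate 2 the median was -0.22, and without the arrays of conflicting labels it was -0.49 with 0 genes called by limma. With the slide as a block 2 of 34 fell (5.88%, beside 3.60% of all genes). On all 8 arrays 31 were well above background, and 7 of these fell, beside 752 of 8103 genes overall. Dmtn, an actin-binding protein of the red cell skeleton, gave 0.26, 0.38, 0.65 and 0.87 in LPS-G0 and -0.93, -2.43, -0.37 and -0.53 in LPS-G1. The groups did not overlap, and the log2 fold change was -1.60 ± 0.38 (SE, n = 4 a group, limma adjusted p = 0.0281). The Dmtn probe cleared background on 3 of 4 LPS-G1 arrays, and without LPS-G1 replicate 2 the change was -1.15. Car1, carbonic anhydrase I, gave 0.89, 0.31, 0.49 and 0.73 in LPS-G0 and -0.23, -1.29, -0.20 and -0.17 in LPS-G1. Its difference was -1.08, and only LPS-G1 replicate 2 was below -1. Kel, a blood group antigen, changed by -1.21, and by -0.76 without LPS-G1 replicate 2. Trim10 changed by -1.21, Gypc (glycophorin C) by -1.05, Hemgn by -1.03, Epb42 (protein 4.2 of the red cell membrane) by -0.93 and the erythroid transcription factor Klf1 by -0.81.

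The globins gave values near 0. Hbb-b1 differed by -0.06, Hba-a1 by 0.07, Hbb by 0.16 and Alas2, the first enzyme of heme synthesis in red cells, by 0.02, and none passed the test. Globin transcripts are among the most abundant in whole blood. The mean log2 Cy3 signal was 18.24 for Hbb-b1 and 17.71 for Alas2, with Hba-a1 and Hbb between them. The median of the erythroid list was 12.49. Whether signals this bright were saturated was not tested, so these values do not show that globin RNA was unchanged. Of 11 tested genes of heme synthesis, 1 fell (9.09%, beside 8.95% of all genes), Urod (uroporphyrinogen decarboxylase, -0.73). The list median was -0.58. The heme synthesis list was lowest on LPS-G1 replicate 2, at -0.86, and lay between -0.04 and -0.03 on the other 3 LPS-G1 arrays.

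**Figure D2:**
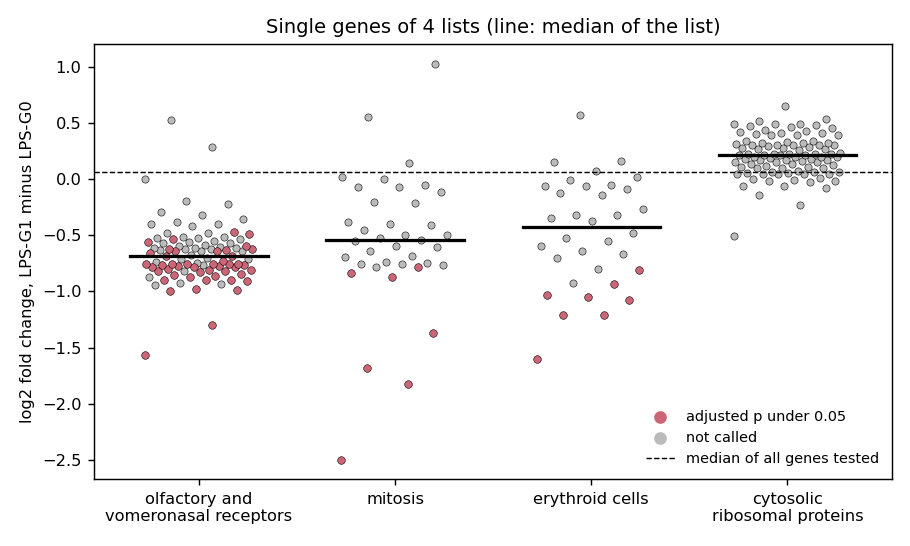
Each point is 1 tested gene of 4 lists, with its log2 fold change of LPS-G1 minus LPS-G0 on the vertical axis, in red at a limma adjusted p under 0.05. The black line is the list median (-0.68, -0.55, -0.42 and 0.22 from left to right) and the dashed line is the median of all genes tested, 0.06.

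The largest single decrease among genes with separate groups was that of Serp2, a small protein of the endoplasmic reticulum membrane. Its ratios were 0.95, 0.29, 1.32 and 1.17 in LPS-G0 and -2.07, -0.58, -2.66 and -2.22 in LPS-G1. LPS-G1 replicate 2 was the closest to LPS-G0 here, unlike in the mitotic and erythroid genes. The difference was -2.82 ± 0.45 (SE, n = 4 a group, limma adjusted p = 0.0271), and a second Serp2 probe gave -3.65 (adjusted p = 0.0281) with LPS-G1 above background on 1 of 4 arrays. Without the arrays of conflicting labels it was -2.50 (limma adjusted p = 0.126). Nprl3, a brake on the nutrient sensor mTORC1, changed by -1.60, and LPS-G1 replicate 2 was far below the others at -3.19. Without that array Nprl3 differed by -0.90. Bpifa2, a secreted protein of the family that includes LPS-binding proteins, changed by -1.53, and its probe cleared background on 2 of 4 LPS-G1 arrays.

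**Figure D3:**
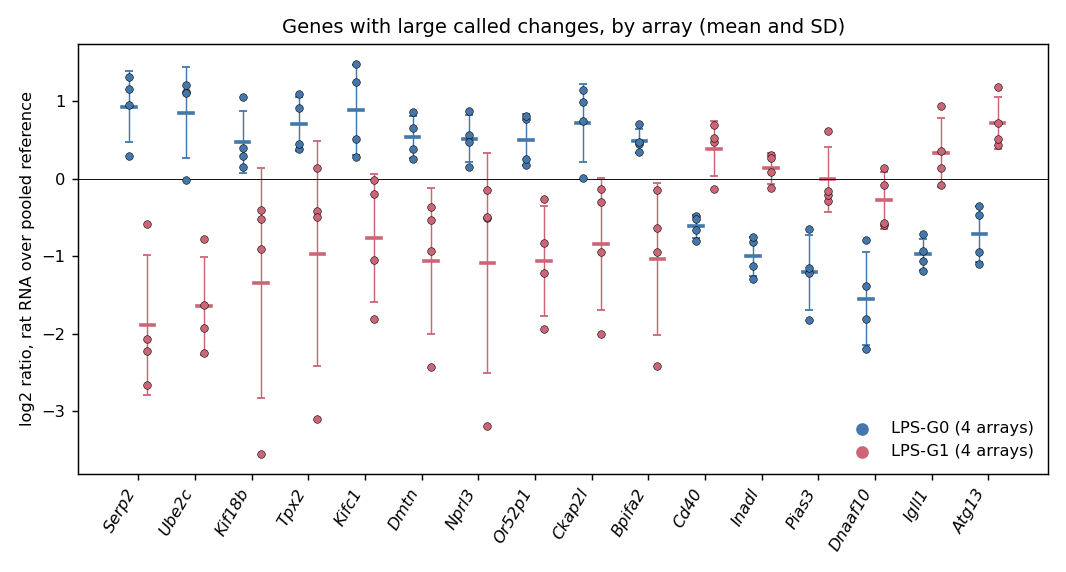
Log2 ratios of 16 genes, with 1 point an array, LPS-G0 in blue and LPS-G1 in red, and the bar and whiskers giving the mean and SD of 4 arrays. The first 10 fell and the last 6 rose, the 2 groups do not overlap for any of them, and LPS-G1 replicate 2 supplies the points near -3 for Kif18b, Tpx2 and Nprl3.

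The smaller decreases were scattered over housekeeping and regulatory functions, beside 8.95% of all genes that fell. Among ubiquitin ligases 9 of 117 fell (7.69%) and 1 rose, with a median of 0.08. Trim65 changed by -0.92 and Marchf8, which sends membrane proteins to lysosomes, by -0.85, and a second Marchf8 probe gave -0.43 (limma adjusted p = 0.187). Of 61 chromatin regulators 6 fell (9.84%) and 1 rose. Arid5b, a DNA-binding partner of a histone demethylase, changed by -0.89, and the histone deacetylase Hdac7 by -0.85, while its second probe gave 0.09 (limma adjusted p = 0.789). Of 31 histone genes 3 fell (9.68%), among them Hist1h2bo with -0.73 and H2bu1 with -0.72, and the arrays of the groups overlapped for H2bu1. Histone copies are near-identical, so these values may be shared between genes.

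Among chaperones 4 of 52 fell (7.69%) and 1 rose (1.92%), beside 8.95% and 0.553% of all genes. Bag4, a cofactor of Hsp70, changed by -1.08 and Hspa12a by -0.90. In transcription, 3 of 65 genes of RNA polymerases and mediator fell (4.62%). These were the elongation factor Supt5h (-0.95), Polr3d of RNA polymerase III (-0.92) and Polr2a, the largest subunit of RNA polymerase II (-0.63). Of 80 zinc finger proteins 4 fell (5%), led by Zfp346 (-0.70) and Zkscan2 (-0.69).

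The called genes of membrane traffic and the cytoskeleton stand beside 8.95% of all genes that fell and 0.553% that rose. Of 84 genes of endosome transport 5 fell (5.95%) and 2 rose (2.38%). Ehd1, which drives endocytic recycling, had ratios of 0.72, 0.39, 0.35 and 0.61 in LPS-G0 and 0.15, -0.31, -0.27 and -0.57 in LPS-G1. These arrays did not overlap and the change was -0.77, but the second Ehd1 probe gave -0.22 (limma adjusted p = 0.574). Rab6b, a GTPase of Golgi traffic, changed by -0.67. Of 71 actin and tubulin genes 3 fell (4.23%) and 1 rose (1.41%), with Tubb4b at -0.71 and Tuba3a at -0.65. Tubulin genes are close copies of each other. Of 63 protein phosphatase genes 4 fell (6.35%), among them the regulatory subunits Ppp2r5b (-0.76) and Saxo4 (-0.58).

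Among genes of prostaglandins and leukotrienes 4 of 26 fell (15.4%, against 8.95% of all genes), while the list median was 0.13. None was called by limma with the slide as a block or after the base count correction. They were the phospholipases Pla2g1b (-0.90), Pla2g2e (-0.59) and Pla2g3 (-0.59), which release fatty acids from phospholipids, and Ptgir (-0.61), the prostacyclin receptor. Ptgir gave 0.41, 0.26, 0.41 and 0.46 in LPS-G0 and -0.05, -0.45, -0.22 and -0.18 in LPS-G1, with no overlap. The probes of Pla2g1b and Ptgir held 21 and 18 cytosines.

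The large biosynthetic machines had few or no decreases, beside 8.95% of all genes that fell. None of 94 cytosolic ribosomal proteins and none of 83 subunits of oxidative phosphorylation fell or rose by limma, with list medians of 0.22 and 0.08. At an unadjusted p under 0.05, 10 ribosomal proteins were higher and 0 lower, and 8 subunits of oxidative phosphorylation were higher and 4 lower. Of 87 splicing genes 1 fell (Sf3a2, -0.61) and the median was 0.27, and none of 33 genes of ribosome biogenesis passed the test by limma (median 0.29, with 6 higher and 1 lower unadjusted). The ribosomal protein medians were -0.11, -0.04, -0.02 and -0.21 on the LPS-G0 arrays and 0.01, 0.20, 0.11 and 0.11 on the LPS-G1 arrays. They lay slightly higher in every LPS-G1 array, opposite to the olfactory receptors. The median cytosine count was 12 for ribosomal proteins and oxidative phosphorylation, 11 for splicing and 13 for ribosome biogenesis. It was 17 for lower probes and 13 for all. After the base count correction the medians of these lists, in that order, were 0.14, 0.04, 0.10 and 0.16, beside 0.03 for all genes. The part of the cytosine count in these shares was not tested. Of 12 genes of cholesterol synthesis and uptake none fell and 2 rose (16.7%, beside 0.553% of all genes). These were Msmo1 (0.75) and Hmgcs1, an early enzyme of the mevalonate pathway (0.64). With the slide as a block 1 gene of this list rose by limma, and after the base count correction 0 did.

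The immune lists held 0 to 2 called genes each, beside 8.95% of all genes that fell and 0.553% that rose. At those shares lists of this size hold few called genes. None of 18 genes of LPS recognition and Toll-like receptor signalling passed the test by limma (median 0.29, with 3 higher and 0 lower unadjusted). Traf3, an adaptor below Tlr4 and Cd40, differed by 0.35 ± 0.28 (SE, n = 4 a group, limma adjusted p = 0.421), and its arrays overlapped. Of 16 genes of beta-glucan receptors and Syk signalling 1 fell, Vav3, a guanine nucleotide exchange factor. Vav3 gave 0.00, 0.01, 0.43 and 0.51 in LPS-G0 and -0.66, -1.03, -0.84 and -1.01 in LPS-G1, a log2 fold change of -1.12 with separate groups (limma adjusted p = 0.0271). Of 14 NF-kB genes 1 fell (Nfkbid, -0.84), of 13 inflammasome genes 1 fell (Nlrp1a, -0.61), and of 33 interferon-stimulated genes 2 fell, the transcription factor Irf7 (-1.14, with overlapping arrays) and Cmpk2 (-0.74). Of 15 chemokine genes 2 fell, Ccl20 (-0.80) and Ccrl2 (-0.60). Fcer2, Nlrp1b and Atg10 were on the array but not well above background on all arrays of either group, and were not tested.

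Few markers of white cells or platelets passed the test, beside 8.95% of all genes that fell and 0.553% that rose. None of 12 neutrophil, 14 monocyte, 18 T cell and 14 platelet markers passed by limma, with list medians of 0.19, 0.24, 0.24 and -0.08. Lists this short can hold no called gene at those shares. At an unadjusted p under 0.05 these lists had 1, 1, 1 and 2 lower genes, and 1 monocyte marker was higher. Of 16 markers of cytotoxic T and NK cells 1 fell (6.25%), the activating receptor Klrk1 (-0.48), with a median of -0.24. The median of 10 B cell markers was 0.48, and 1 rose. This was Cd40, a receptor for help from T cells, with -0.66, -0.48, -0.51 and -0.81 in LPS-G0 and -0.13, 0.48, 0.69 and 0.52 in LPS-G1. The groups did not overlap, and the difference was 1.01 ± 0.27 (SE, n = 4 a group, limma adjusted p = 0.0318). Igll1, which encodes the surrogate light chain of precursor B cells, gave -0.71, -1.19, -0.93 and -1.06 in LPS-G0 and -0.08, 0.95, 0.14 and 0.35 in LPS-G1, a difference of 1.31 ± 0.34 (limma adjusted p = 0.0281). The 8 tested genes of MHC class II had a median of 0.45, and none passed the test by limma (3 higher and 0 lower unadjusted).

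The other increases came from single genes. Atg13, a subunit of the kinase complex that starts autophagy, gave -0.46, -1.09, -0.94 and -0.35 in LPS-G0 and 0.44, 0.52, 1.19 and 0.73 in LPS-G1, a difference of 1.43 ± 0.27 (limma adjusted p = 0.0281). Its signal cleared background on 1 of 4 LPS-G0 arrays and on all of LPS-G1. Of the 25 tested autophagy genes 1 other passed the test, Atg9a, which changed by -0.74. Probes not well above background on any LPS-G0 array give only a bound. Dnaaf10, an assembly factor of dynein, was called higher in LPS-G1 (limma adjusted p = 0.0288), and no fold is given for it because its bound from the Cy3 signal exceeded the measured difference in ratio. Pias3, an inhibitor of Stat3, was at least 2.15-fold higher by that signal (limma adjusted p = 0.0363), and Inadl, a scaffold of cell junctions, was at least 2.05-fold higher (limma adjusted p = 0.0350).

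The decreases followed the cytosine count of the probe. Among probes with 9 or fewer cytosines 0.70% fell, 1.39% rose and the median difference was 0.30. Among the 1913 probes with 18 or more, 421 fell, none rose and the median was -0.38. The share that fell rose through every class between them, at 1.71%, 3.81%, 7.91% and 13.7%. Of the 862 lower probes 610 (70.8%) held 16 or more cytosines, beside 32.4% of all probes tested. The median was 17 cytosines for lower probes, 10 for higher probes and 13 for all. The difference was present at every brightness. Among the dimmest of 5 equal classes of signal, 2 of 362 probes with 9 or fewer cytosines and 36 of 277 with 18 or more fell. Among the brightest these were 1 of 252 and 69 of 470.

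The same slope was visible on single arrays. Slopes came from a regression of each array on the counts of adenine, cytosine and guanine, so each cytosine is set against a thymine. On the LPS-G0 arrays the log2 ratio of the tested probes changed by 0.036, 0.054, 0.014 and 0.072 with each cytosine. On the LPS-G1 arrays it changed by 0.027, -0.016, -0.007 and -0.020. LPS-G0 replicates 3 and 4, of conflicting labels, were the shallowest and the steepest of their group and LPS-G1 replicate 1 ran in the direction of LPS-G0. LPS-G0 replicate 3 was below LPS-G1 replicate 1, so the groups overlapped in this measure. LPS-G0 replicate 3 and LPS-G1 replicates 2 and 3 shared slide 2, so slide and group were partly mixed in these slopes. Whether the slope followed the slide or the group was not tested.

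**Figure D4:**
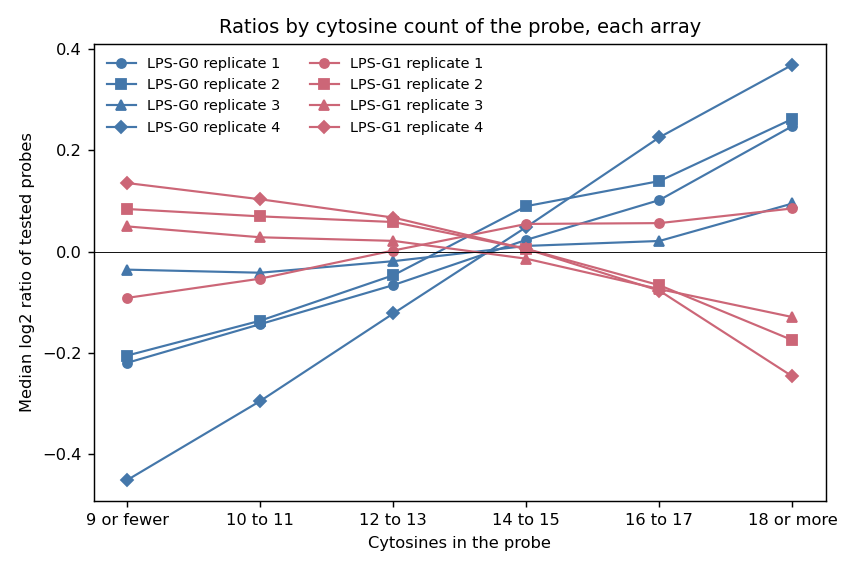
Median log2 ratio of the tested probes in 6 classes of cytosine count, with 1 line an array. The LPS-G0 arrays (blue) reach 0.095 to 0.37 at 18 or more cytosines, 3 of the 4 LPS-G1 arrays (red) descend to between -0.25 and -0.13, and LPS-G1 replicate 1 reaches 0.085.

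When the base counts of the probes were regressed out of each array, 50 probes (0.492%) were lower and 2 higher by limma. The 3 leading lists kept medians close to those above, -0.58 for olfactory and vomeronasal receptors, -0.50 for mitosis and -0.43 for erythroid genes, beside 0.03 for all genes. The called members were then 4, 1 and 2, of 46 genes called lower in all. Serp2 (-2.61, adjusted p = 0.0319), Ube2c (-2.45, adjusted p = 0.0387), Dmtn (-1.87) and Atg13 (1.36) were still called by limma, and Ehd1 (-0.45, adjusted p = 0.0809), Hdac7 (-0.57), Ptgir (-0.34) and Cd40 (0.90) were not. What in the samples or the labelling tracks the cytosine count was not tested.

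The olfactory probes departed from this slope. Their medians were -0.76, -0.69, -0.58, -0.66, -0.69 and -0.69 from the fewest to the most cytosines, over 4, 5, 10, 22, 28 and 24 probes. All other probes ran from 0.30 to -0.37 across the same classes. At 18 or more cytosines 16 of 24 olfactory probes fell (66.7%), against 21.4% of other probes. At 9 or fewer, 2 of 4 fell, against 0.57% of other probes.

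**Figure D5:**
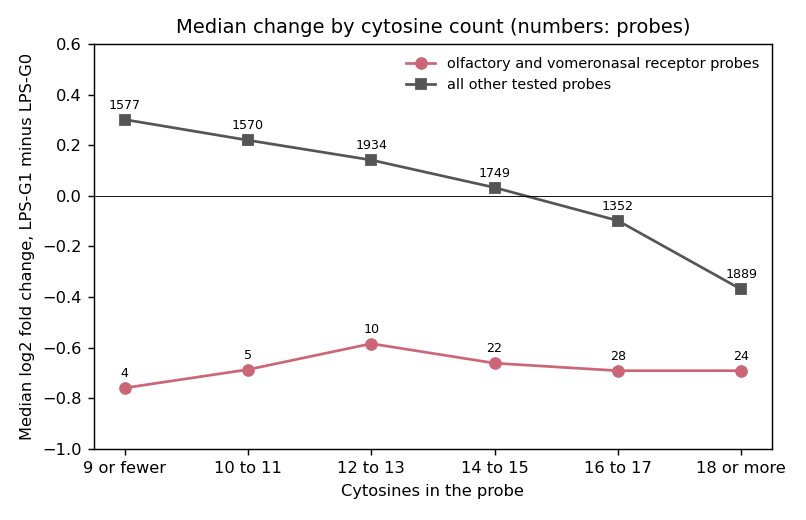
Median log2 fold change of LPS-G1 minus LPS-G0 by the number of cytosines in the probe, for olfactory and vomeronasal receptor probes (red) and all other tested probes (grey), with the number of probes above each point. The red line stays between -0.76 and -0.58 while the grey line falls from 0.30 to -0.37.

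Set directly against low-molecular-weight beta-glucan, LPS-G1 did not separate from LPS-G2. Of 10164 probes 0 (0%) passed the test by limma, with 443 lower and 222 higher at an unadjusted p under 0.05 and a smallest adjusted p of 0.688. Array weights, the slide block and the base count correction also gave 0. The list medians of this difference were -0.31 for olfactory and vomeronasal receptors, -0.22 for mitosis and -0.29 for erythroid genes, beside 0.02 for all genes. Serp2 differed by -2.01 and Atg13 by 1.01, with limma adjusted p-values of 0.688 each. A difference between the diets that misses the threshold does not show that they act alike.

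The effect of G1 with LPS was not shown to differ from its effect without LPS. The interaction was called for 0 of 10164 probes (0%) by limma, with 108 below 0 and 197 above 0 at an unadjusted p under 0.05, and for 1 probe with array weights. For Ube2c the interaction was -1.41 and for Serp2 -3.29, with limma adjusted p-values of 0.999 and 0.635. The 862 lower probes were chosen for their difference between LPS-G1 and LPS-G0, so the medians of both groups follow from that choice. These probes had group medians of -0.55 in C-G1 and -0.30 in LPS-G1, against -0.03 in C-G0 and 0.42 in LPS-G0. Their medians were -0.05 in saline-injected rats on low-molecular-weight beta-glucan (C-G2) and 0.05 in LPS-G2.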

How the data were processed

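Whole blood RNA was measured on 2-colour Agilent rat expression arrays. The deposited files hold, per the file headers, the authors' Feature Extraction output: log10 ratios of Cy5 over Cy3 after background correction and Lowess dye normalization, Cy3 and Cy5 intensities, and other flag columns set by the software. The submitters' processing notes name version 10.7.3.1 and the file headers 10.10.1.1. The deposited series table held the same log10 values. Here each ratio was turned to rat RNA over reference as minus the log10 ratio in log2 units, control spots and outlier spots were left out, and spots of a probe were averaged. Probe positions (rn4) are those of the files, and symbols were updated through RefSeq accessions, of which 18643 of 23402 probes matched.

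Groups follow the sample titles. Nothing in the labels ties an array to an animal, while the study's methods state that each array carried RNA of a single rat. The p-values measure the spread between these samples. Limma 3.58.1 in R 4.3.3 (with the R package data.table, version 1.17.8) was fitted to 16 arrays (C-G0 and every LPS-injected group), with all 24 for the interaction, and adjusted over all probes tested. The spread used for LPS-G1 and LPS-G0 therefore borrows from the other groups. The number of arrays limits the precision. A probe not well above background on any array of a group gives a bound, the mean Cy3 signal of the bright group over that of the dim group raised to the detection limit of each array, its lowest signal called above background. The script was tested on simulated data.

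The members and lists were chosen with earlier results of these data known. Named genes are the 10 largest decreases and 6 largest increases of at least 2-fold with separate groups, the 2 genes of smallest adjusted p in each list with at least 3 genes called in a direction, and 8 genes the study discusses for this diet. Among the genes selected so, 1 is not reported here, nor are 1 of the lists with its genes and 1 probe sequence. Other named members of lists were chosen after their values were seen. Alternatives changed the arrays in the fit, blocks, weights, filter, background correction, channel and test, and left out each array. The correction for base counts, a regression of each array on the linear and squared counts of adenine, cytosine and guanine, was chosen after seeing the data.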

Additional observations from a re-analysis of the deposited data

Results flagged for a closer look

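In groups of 4 arrays, 98 groups were checked for an array far from the other 3, and 9 were found. Chance alone flags about 1 in 20 groups. LPS-G1 replicate 2 was far below the other LPS-G1 arrays for Kif18b (-3.55, the others -0.90 to -0.40), Nprl3 (-3.19, the others -0.51 to -0.15), Car1 (-1.29, the others -0.23 to -0.17) and the median of the mitosis list (-0.31, the others -0.11 to -0.09). LPS-G1 replicate 3 stood above the others for Hist1h2bo (-0.059, the others -0.50 to -0.44) and for Pias3 (0.62, the others -0.28 to -0.16).

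Among the LPS-G0 arrays, replicate 2 was far below the others for Ube2c (-0.020, the others 1.11 to 1.21). Replicate 3 was below the others for Zfp346 (0.34, the others 0.61 to 0.65), and replicate 1 was above the others in the median of the mitosis list (0.36, the others 0.26 to 0.27).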

How the results depend on the processing

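No named gene and no leading list median changed direction under any alternative. The counts did change. Against 862 lower and 57 higher probes, and 83 and 19 at 2-fold, the 8 arrays alone gave 258 higher and 33 at 2-fold. All 24 arrays gave 2 lower, 1 higher, 2 and 1. The slide block gave 344, 11, 38 and 5. Array weights gave 1912, 895, 172 and 45. Probes well above background on all 8 arrays gave 35 higher, 45 lower and 3 higher at 2-fold. No filter, Tukey's test after an analysis of variance and the arrays without conflicting labels each gave 0 in every count, with 2663, 1167 and 1553 lower at an unadjusted p under 0.05. Normexp with loess gave 97 higher, 14 lower at 2-fold and 0 higher at 2-fold. Cy3 alone gave 4, 0, 4 and 0, and the base count correction 50, 2, 23 and 2. Leaving out 1 array gave 0 to 1170 lower, 0 to 132 higher, 0 to 203 lower at 2-fold and 0 to 42 higher at 2-fold. The interaction gave 1 probe with array weights and 0 otherwise.

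The olfactory median was -0.054 with no filter, -0.41 with normexp and loess, -0.41 in slide 1 and -0.98 in slide 3 (leaving out 1 array, -0.75 to -0.61). The mitosis median was -0.20 with no filter, -0.30 with normexp and loess and -0.42 in slide 3 (leaving out 1 array, -0.62 to -0.41). The erythroid median was -0.26 in slide 1 (leaving out 1 array, -0.49 to -0.22). Arrays of the same replicate number in both groups did not deviate together (correlations -0.13 to 0.06), so the numbers do not pair them. The replicate block gave 1167 lower and 98 higher probes, and 88 and 25 at 2-fold. With no filter 30367 probes were tested. The cause of these changes was not tested.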

Other observations

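Lists outside the leading 3 showed smaller patterns. Of 28 tested genes of MHC class I and peptide loading none passed the test by limma (6 lower and 1 higher unadjusted), and the median was -0.16 with 67.9% of differences negative. Of 24 ubiquitin-conjugating enzymes 2 fell (8.33%, beside 8.95% of all genes), Ube2c and the interferon-regulated Ube2l6. Ube2l6 gave 0.79, 0.24, 0.54 and 0.17 in LPS-G0 and -0.47, -0.64, -0.80 and -0.91 in LPS-G1, a difference of -1.14 (limma adjusted p = 0.0271). Slc27a2, a fatty acid transporter, had one of the largest changes, -2.51 (limma adjusted p = 0.0281), but cleared background on 1 of 4 LPS-G1 arrays, and its groups overlapped. Its ratios were 1.19, 0.55, -0.06 and 1.67 in LPS-G0 and 0.38, -2.92, -2.33 and -1.84 in LPS-G1. Among antioxidant enzymes the glutathione transferases Gstm2 (-1.04) and Gstm4 (-0.62) fell, 2 of 35 (5.71%), and both belong to a family of close copies.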
